A study of Homo sapiens with 2 samples.

Results

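Nuclear receptors are transcription factors that carry a DNA-binding domain and, in most members, a pocket for a lipid-soluble ligand such as a steroid, a retinoid, thyroid hormone or a bile acid. Many bind DNA as dimers with the retinoid X receptors, and orphan members act without a known natural ligand. In breast epithelium, steroid receptors are known for governing growth and differentiation. The genes described here are 44 protein-coding nuclear receptor genes other than the gene of estrogen receptor alpha, out of 20033 protein-coding genes in GENCODE release 44 on hg38. They were chosen by name, as members of the receptor family, and all 44 were found in the annotation.

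Chromatin accessibility was profiled by ATAC-seq in CAMA-1, an epithelial breast adenocarcinoma cell line. In this assay Tn5 transposase cuts DNA that nucleosomes leave exposed and joins adapters to it for sequencing. The 2 libraries were biological replicates of 50000 cells each, with no treatment named, and formed 1 condition, so that no groups of samples were compared and no test was run. The lists held 245736 peaks in replicate 1 and 259745 in replicate 2, and the depth of each library is unknown from them. Weaker signals than the peak caller's limit are not listed, so that "no peak" does not mean that the chromatin was closed.

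A TSS peak is a peak within 1 kb of any annotated transcription start site (TSS) of a gene, and the strength of a gene is the fold enrichment over background of its strongest TSS peak. The height of a peak is the number of reads stacked at its highest point, recovered from the deposited fold enrichment on the assumption given with the processing. The genome-wide background was 3.35 reads deep in replicate 1 and 3.52 in replicate 2, and the lowest listed peak of each had a height of 11. This background was the same at every locus, so that strengths are not adjusted for local copy number. The authors report copy-number aberrations in CAMA-1, and their part in the strengths was not tested. The 7 markers of luminal breast epithelium examined all had a TSS peak in both replicates, with a median fold enrichment of 85.1 in replicate 1 and 90 in replicate 2. The 5 basal markers did so too, with medians of 28.5 and 25.4, and 2 of 4 liver markers (APOA1 and TTR) had one, where 79.3% of all protein-coding genes did.

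Most of the receptor genes had an accessible TSS in CAMA-1. In 37 of the 44 genes, or 84.1% (Wilson 95% confidence interval 70.6 to 92.1%), a TSS peak was called in both replicates, against the 79.3% of all protein-coding genes, a share inside that interval. With only the most 5′ TSS of each gene, the order turned, with 28 receptor genes, or 63.6%, against 71.7%. NR5A1 and NR5A2 had a TSS peak in replicate 1 only, where 2.08% of all protein-coding genes had one in exactly 1 replicate. RXRG, NR1H4, NR1I2, HNF4A and NR2E1 had none in either replicate.

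In median strength, taken at the strongest peak over all annotated TSSs, these 37 genes differed little from protein-coding genes as a whole. Their median fold enrichment was 53.6 in replicate 1 and 53.1 in replicate 2, where the 15890 protein-coding genes that passed in both had medians of 51.8 and 53.3. Of the 44 receptor genes, 19 lay above the median strength of those 15890 genes, or 43.2%, against 39.7% of all protein-coding genes. When genes were ranked within their own chromosome, the count was again 19. Among the alternatives run, it was lowest at 13, or 29.55%, with only the most 5′ TSS of each gene. There 71.7% of all protein-coding genes had a TSS peak in both replicates, so that the 39.7% does not apply. The count was highest at 23, or 52.3%, with a ranking by width over the same 15890 genes. The strongest TSS peaks belonged to RARA, NR4A1 and NR3C2, the 3 receptor genes among the strongest 10% of those 15890 genes. They made up 6.82% of the 44, against 7.93% of all protein-coding genes.

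**Figure D1:**
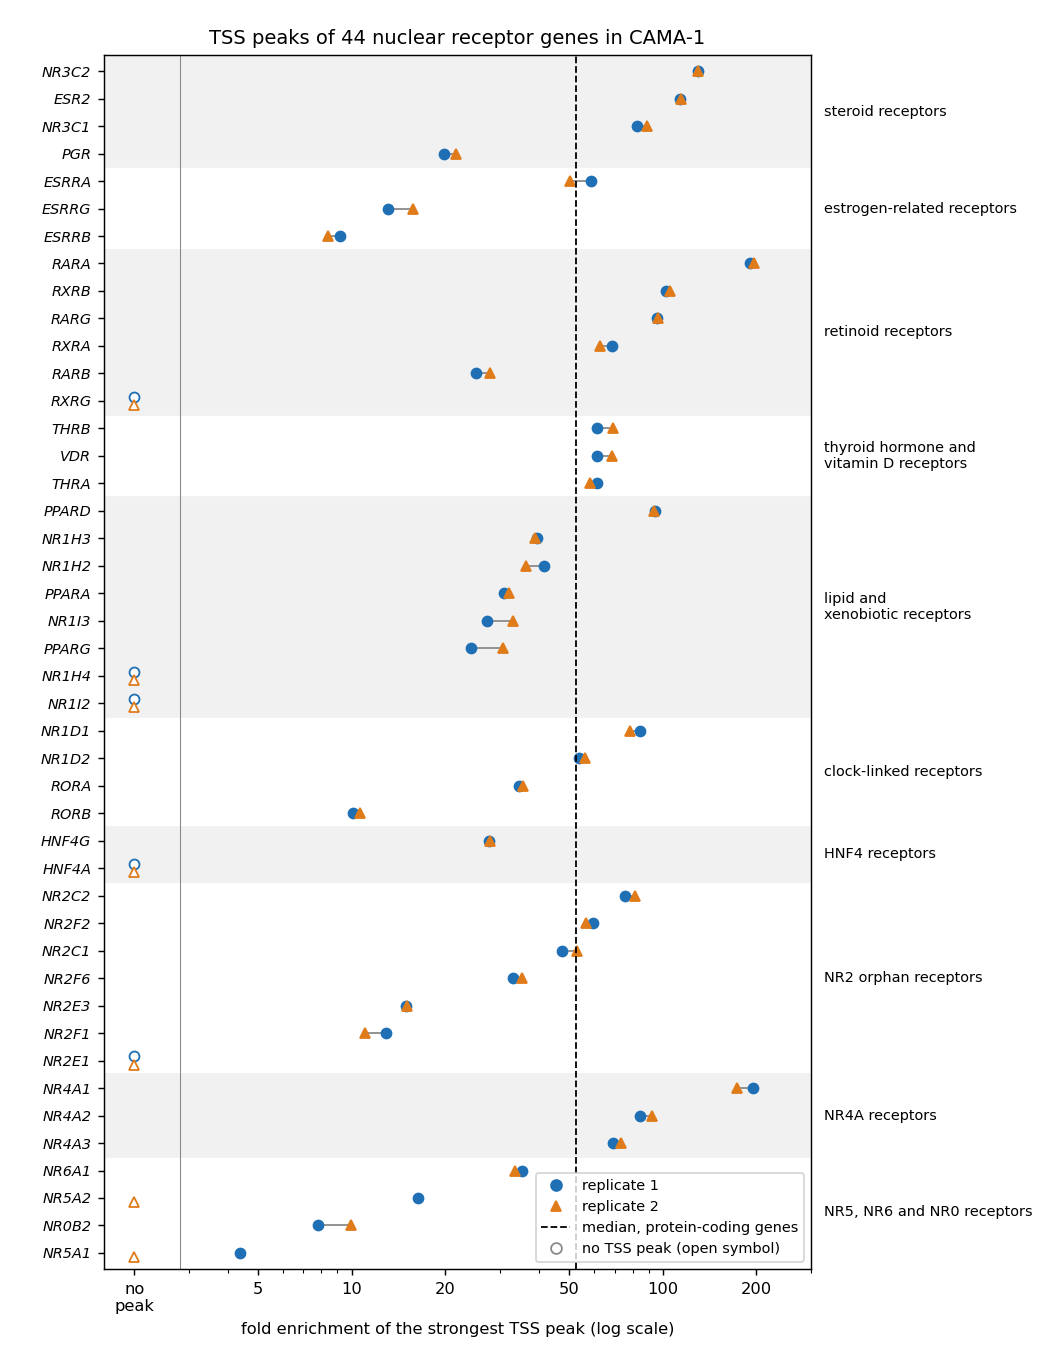
Fold enrichment of the strongest TSS peak (x axis, log scale) of each of 44 nuclear receptor genes (y axis), grouped by receptor class. Circles stand for replicate 1, triangles for replicate 2, open symbols at the left for replicates without a TSS peak, and the dashed line for the median of protein-coding genes that passed in both, 52.6. All 3 NR4A genes and all 3 thyroid hormone and vitamin D receptor genes lie above that line, and 5 genes have open symbols for both replicates.

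The replicates differed little beside the differences between genes. The log2 ratio of replicate 2 to replicate 1 ranged from −0.23 for ESRRA to 0.35 for PPARG and NR0B2 over the 37 genes. The pooled SD was 0.105 on the log2 scale. Of the 37 genes, 25 were higher in replicate 2, as were 9480 of the 15890 protein-coding genes. The median log2 ratio was 0.045 in the receptor genes and 0.037 in all. When the genes were put in order of strength, the replicate values of 19 of the 36 neighbouring pairs overlapped, so that the order of these neighbours is not settled, and those of the other 17 pairs did not.

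Steroid receptor genes ranged widely. NR3C2, which encodes the mineralocorticoid receptor, had a TSS peak 1052 bp wide in replicate 1, with a fold enrichment of 129.8. Its height there was 563 (517 to 612, the exact Poisson 95% confidence interval, as for all heights below). In replicate 2 this peak was 1174 bp wide and 586 (539.5 to 635) reads high, and its fold enrichment was again 129.8. It lay at chr4:148441967-148443018 in replicate 1 and at chr4:148441970-148443143 in replicate 2.

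NR3C1 encodes the glucocorticoid receptor, and its peak was the widest of the 4 steroid receptor genes. It covered chr5:143402503-143405943 in replicate 1 and chr5:143402582-143405895 in replicate 2, or 3441 and 3314 bp. Its heights were 359 (323 to 398) and 400 (362 to 441), its fold enrichments 82.8 and 88.7, and 9 of the 16 annotated TSSs of the gene lay under a peak in both replicates.

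PGR, which encodes the progesterone receptor and is a classic estrogen-induced gene of breast epithelium, had the weakest TSS peak of the 4. Its interval was chr11:101129309-101129969 in replicate 1, 661 bp wide with a height of 85 (67.9 to 105), and chr11:101129562-101129976 in replicate 2, 415 bp wide with a height of 97 (78.7 to 118). The fold enrichments of 19.8 and 21.7 were stronger than in 18.2% of protein-coding genes with a TSS peak, and the replicates of PGR did not overlap those of the other steroid receptor genes.

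ESR2 encodes estrogen receptor beta. Its strongest TSS peak, at chr14:64337797-64339355 in replicate 1 and chr14:64337807-64339345 in replicate 2, had widths of 1559 and 1539 bp, heights of 493 (450 to 539) and 515 (472 to 562), and fold enrichments of 114 in both. This peak lay 43426 bp from the TSS of the MANE Select transcript, the single representative transcript of a gene. The peak at the MANE Select TSS itself reached 17.3 in replicate 1 and 17.9 in replicate 2, below every replicate value of the strongest peaks of the 4 genes.

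The estrogen-related receptors are orphan relatives of the estrogen receptors with roles in energy metabolism and development. Among them, ESRRA had fold enrichments of 58.9 and 50.2, with heights of 255 (225 to 288) and 226 (198 to 258) and widths of 2425 and 2639 bp at chr11:64304250-64306674 and chr11:64304089-64306727. That peak also lay within 1 kb of a TSS of CATSPERZ, so that it cannot be assigned to ESRRA alone. ESRRG reached 13.1 and 15.7 and ESRRB 9.20 and 8.40, and both were weaker than ESRRA in each replicate.

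The retinoic acid receptors RARA, RARB and RARG bind DNA with a retinoid X receptor as partner. RARA had the highest mean fold enrichment of the receptor genes, with 190.1 in replicate 1 and 196 in replicate 2. Its peak covered chr17:40318855-40325054 and chr17:40318880-40325733, or 6200 and 6854 bp, with heights of 825 (770 to 883) and 885 (828 to 945). It lay 9675 bp from the MANE Select TSS in replicate 1, and the peak near that TSS reached 120.6 and 128.7. The 6 promoters of RARA all had a peak in both replicates, a promoter being a set of TSSs joined where they lay within 1000 bp of each other. A peak could count for more than 1 promoter, and the strongest peak of a promoter could be another interval in the other replicate. Both occurred in RARA. RARG, a receptor gene linked to epithelia, had fold enrichments of 95.9 and 96.9 over 3503 and 3984 bp.

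RARB was the weakest retinoid receptor gene with a TSS peak. Its strongest TSS peak had fold enrichments of 25.1 and 27.9 and lay 598092 bp from the MANE Select TSS, at a promoter used by 3 annotated TSSs. The MANE Select promoter held a weaker peak, with fold enrichments of 9.66 in replicate 1 and 9.51 in replicate 2, and 2 of its 9 promoters were open in both replicates. RARB is a textbook target of its own receptor family, through a response element just upstream of this start.

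Sequence motifs were searched in the 301 bases around the midpoint of each region, a region being overlapping peaks that hold a peak of each replicate. The receptor hexamer is AGGTCA. It was searched on both strands alone, as the direct repeats AGGTCANAGGTCA, AGGTCANNAGGTCA, AGGTCANNNAGGTCA, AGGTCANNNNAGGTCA and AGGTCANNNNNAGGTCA, and as the inverted repeat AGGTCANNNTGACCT, which is its own complement. Matches of the repeats also hold the hexamer. Direct repeats in which the leading A of either hexamer could also be G, and the G before its T also T, were added after the data were seen, for spacers of 1, 2 and 5 bases. Retinoic acid receptor dimers are known to bind direct repeats with spacers of 1, 2 or 5 bases. The matches below are shown because they lie in accessible regions of the retinoid receptor genes and of PPARD; capitals mark the match, small letters the 15 reference bases on each side, and letters are those of the forward strand of hg38.
RARB, 5-base spacer, chr3:25428195-25428241: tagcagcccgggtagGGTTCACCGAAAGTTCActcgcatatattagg
RXRB, 5-base spacer, chr6:33195456-33195502: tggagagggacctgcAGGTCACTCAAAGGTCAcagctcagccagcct
RXRA, 2-base spacer, chr9:134433059-134433102: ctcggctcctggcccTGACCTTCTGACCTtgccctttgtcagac
PPARD, 2-base spacer, chr6:35402792-35402835: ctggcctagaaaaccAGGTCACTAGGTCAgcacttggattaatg

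The RARB match, one of the variant hexamers, ended 37 bp before its MANE Select TSS and started 53 bp before it, under a region at chr3:25428065-25428322 with the fold enrichments of 9.66 and 9.51 given above. The RXRB match lay in intron 7, under a TSS region at chr6:33195239-33195760 with fold enrichments of 29.9 and 31.8. The RXRA match, in intron 8, had weaker gene-body peaks of 7.82 and 9.29 over it, and the PPARD match, in intron 2, had 14.3 and 9.95. Over all 654 regions of the receptor genes, the hexamer occurred in 144, or 22.0%, against 21.4% of all 215195 regions. A direct repeat of AGGTCA with a spacer of 5 bases occurred in 1 of the 654 and in 0.0186% of all regions, and with the variant hexamers in 4 and in 0.135%. With a spacer of 2 bases the exact repeat occurred in 2 regions of the receptor genes and in 0.0256% of all regions, and the variants in 4 and in 0.445%. Spacers of 1, 3 and 4 bases gave no exact match in the 654 regions, where 0.0232%, 0.0144% and 0.0376% of all regions had one, and variants with a spacer of 1 base gave none, against 0.132% of all. The inverted repeat was found in none of the 654 and in 0.0228% of all regions. These counts are too small for a comparison of shares, and a match is a description of the letters, not a binding site.

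The retinoid X receptors are the shared dimer partners of many receptors. RXRB had fold enrichments of 102 and 106, and RXRA 68.8 and 63.0, so that their replicates did not overlap. In RXRA the strongest TSS peak lay 51463 bp from the MANE Select TSS, whose own peak reached 25.5 and 34.7. The strongest TSS peak of RXRB lay 2304 bp from its MANE Select TSS in replicate 1, and the peak there reached 44.2 and 34.05. RXRG, the member known from muscle and brain, had no TSS peak in either replicate, and its nearest peak lay 1324 bp from a TSS in replicate 1 and 1343 bp in replicate 2.

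Genes of the thyroid hormone and vitamin D receptors lay close together. THRB had a peak at chr3:24493998-24496034 in replicate 1 and chr3:24494003-24496216 in replicate 2, with widths of 2037 and 2214 bp, heights of 267 (236 to 301) and 311 (277 to 348) and fold enrichments of 61.7 and 69.0. VDR reached 61.7 and 68.8 and THRA 61.7 and 58.4, and all 3 had the same height of 267 in replicate 1. In THRA the peak at the MANE Select TSS was weaker, with 17.7 and 19.0, and the strongest peak lay 8453 bp away.

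Among the receptors for lipids and xenobiotics, PPARD, which encodes a fatty acid-sensing receptor, stood above the rest. Its fold enrichments were 94.3 and 93.98, with heights of 409 (370.3 to 451) and 424 (385 to 466). Replicate 1 split into 3 TSS peaks what replicate 2 called as 1, so that the strongest was 1226 bp wide at chr6:35342090-35343315 in replicate 1 and 3489 bp wide at chr6:35341673-35345161 in replicate 2. The liver X receptor genes NR1H2 and NR1H3, sensors of oxysterols, had 41.6 and 36.3, and 39.4 and 38.9, and the peak of NR1H3 also lay within 1 kb of a TSS of MADD.

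The other genes of this class were weaker or had no TSS peak. PPARA, which drives fatty acid oxidation, had fold enrichments of 30.8 and 32.1. PPARG, the receptor of fat cell differentiation, had 24.2 and 30.7 in a peak 116627 bp from its MANE Select TSS, and 3 of its 13 promoters were open in both replicates. NR1I3, a xenobiotic sensor of liver, had 27.2 and 32.9 in a peak 1531 bp from the MANE Select TSS in replicate 1 and 1558 bp in replicate 2, and that TSS had no peak within 1 kb. NR1H4, the bile acid receptor, and NR1I2, the pregnane X receptor, had no TSS peak, and the nearest peaks to a TSS lay 1276 and 35880 bp away for NR1H4 and 1700 and 1725 bp away for NR1I2.

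The receptors tied to the circadian clock include NR1D1 and NR1D2, the REV-ERB repressors, and the ROR activators that share their sites. NR1D1 had a strongest TSS peak at chr17:40098799-40099872 and chr17:40098773-40099929, with widths of 1074 and 1157 bp, heights of 366 (329.5 to 406) and 353 (317 to 392) and fold enrichments of 84.4 and 78.3. It lay 717 bp downstream of the single annotated TSS in replicate 1 and 660 bp in replicate 2, and a weaker peak covered the TSS itself. NR1D2 had 53.6 and 56.2, under a peak that also lay near a TSS of NKIRAS1. RORA had 34.5 and 35.6 and RORB 10.1 and 10.6, and the replicates of these 4 genes did not overlap each other.

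HNF4A and HNF4G encode factors of liver, gut and kidney epithelium. HNF4A had no TSS peak, with the nearest 1358 bp away in replicate 1 and 1341 bp in replicate 2. HNF4G had a TSS peak at chr8:75406896-75408282 in replicate 1 and chr8:75406897-75408254 in replicate 2, of 1387 and 1358 bp, with heights of 119 (98.6 to 142) and 125 (104 to 149) and fold enrichments of 27.6 and 27.9. That peak lay 131587 bp upstream of the MANE Select TSS of HNF4G, to which the nearest peaks were 7000 and 6987 bp away.

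The NR2 group holds orphan receptors that include the testicular receptors NR2C1 and NR2C2 and the COUP factors NR2F1, NR2F2 and NR2F6. NR2C2 was the strongest, with a peak at chr3:14947033-14948840 and chr3:14947010-14948839, widths of 1808 and 1830 bp, heights of 328 (293.5 to 366) and 366 (329.5 to 406) and fold enrichments of 75.7 and 81.2. NR2F2 had 59.6 and 56.6, NR2C1 47.4 and 53.1, and NR2F6 32.9 and 35.4. NR2E3, a factor of photoreceptors, had 14.96 and 15.04, and NR2F1 12.9 and 11.1. NR2E1, a factor of neural stem cells, had no TSS peak, with the nearest 2072 and 2070 bp away.

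The NR4A genes are immediate-early genes that respond to stimuli within a short time, and their TSS peaks were strong and wide. NR4A1 had a single peak at chr12:52048948-52063002 in replicate 1 and chr12:52048915-52063783 in replicate 2, of 14055 and 14869 bp, that spanned 3 of its 7 promoters. Its heights were 845 (789 to 904) and 780 (726 to 837), and its fold enrichments 195 and 173. NR4A2 had 84.7 and 92.4 over 3877 and 4540 bp, and NR4A3 had 69.0 and 73.6 over 3673 and 4223 bp. In each of these 3 genes every promoter had a peak in both replicates.

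In the last group, NR6A1, an orphan receptor of germ cells, had a peak at chr9:124770979-124772319 and chr9:124770980-124772313, of 1341 and 1334 bp, with heights of 152 (129 to 178) and 150 (127 to 176) and fold enrichments of 35.2 and 33.4. NR0B2, a corepressor without a DNA-binding domain that bile acids induce in liver, had 7.82 and 9.95, and its peaks lay 142 and 135 bp from its TSS. NR5A1, the steroidogenic factor of adrenal and gonad, had in replicate 1 a peak of 154 bp at chr9:124501369-124501522, 18 (10.7 to 28.5) reads high at a fold enrichment of 4.37, and in replicate 2 no peak nearer than 3172 bp. NR5A2 had in replicate 1 a peak of 848 bp at chr1:200028805-200029652, 70 (54.6 to 88.4) reads high at a fold enrichment of 16.3.

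The call for NR5A2 turned on the 1 kb limit. The edge of its replicate 1 peak lay 922 bp from a TSS, just inside the limit, and the nearest replicate 2 peak lay 1162 bp away, just outside. The next nearest genes outside the limit were NR1H4, with 1276 bp in replicate 1, and RXRG and HNF4A, with distances from 1324 to 1358 bp. Within 3 kb, 42 of the 44 genes had a peak in both, or 95.45%, against 85% of all protein-coding genes.

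The strongest TSS peaks of the receptor genes were wider than those of other genes in their median. Over the 37 genes the median width was 1381 bp in replicate 1 and 1370 bp in replicate 2, against 1036 and 1049 bp for the 15890 protein-coding genes. Among the widest 10% of these peaks were those of 10 of the 44 receptor genes, or 22.7%, against 7.94% of all protein-coding genes. They belonged to NR4A1, RARA, NR4A2, NR4A3, RARG, NR3C1, NR2F6, ESRRA, PPARD and THRB. Receptor genes also had more annotated TSSs, with a median of 8 against 5 in all protein-coding genes. The part of that difference in the widths and in the strengths was not tested.

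**Figure D2:**
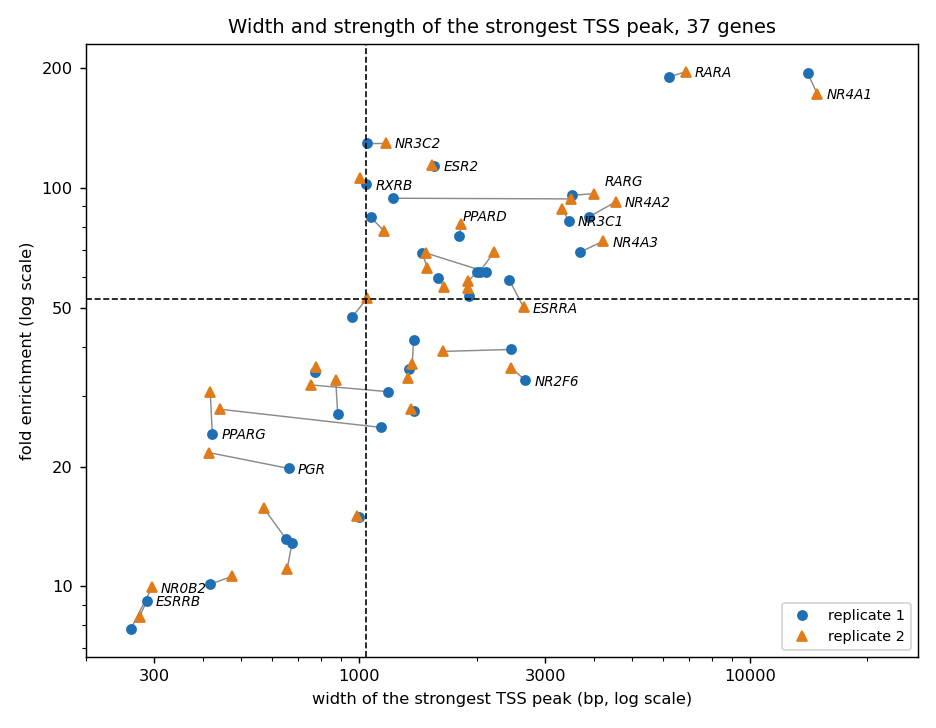
Width in bp (x axis, log scale) and fold enrichment (y axis, log scale) of the strongest TSS peak of 37 nuclear receptor genes, with a line joining replicate 1 (circle) to replicate 2 (triangle) of a gene and dashed lines at the medians of all protein-coding genes with a TSS peak, 1045 bp and 52.6. NR4A1 lies farthest to the right, at 14055 and 14869 bp, and a few genes such as PPARD differ in width between replicates while their fold enrichment hardly moves.

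Accessibility often differed between promoters of 1 gene, though in a smaller share of the receptor genes than of all protein-coding genes. The 44 genes had 174 promoters, of which 86, or 49.4%, held a peak in both replicates, against 46.1% for protein-coding genes as a whole. Of the 41 receptor genes with several promoters, 23 had a peak at some promoters and not at others, or 56.1%, against 71.2% of the 13446 protein-coding genes with several. Every promoter held a peak in 11 of the 41, or 26.8%, against 17.0%, and no promoter did in 7, or 17.1%, against 11.8%. For single start sites, 209 of 424 annotated TSSs, or 49.3%, lay under a peak in both replicates, close to the 49.0% of all TSSs of protein-coding genes.

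With the MANE Select TSS alone, 34 of the 44 genes had a peak within 1 kb in both replicates, or 77.3% (Wilson interval 63.0 to 87.2%), against 74.1% of protein-coding genes with such a transcript. ESRRG, NR1I3 and HNF4G had TSS peaks only at other promoters. In PPARG the MANE Select peak reached 11.3 and 10.6, in RORA 11.3 in both, and in NR1H3 17.9 and 19.9, each below the strongest peak of the gene in both replicates. The 2 RORA values came from intervals that did not overlap, chr15:61229106-61229571 in replicate 1 and chr15:61227391-61228474 in replicate 2.

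**Figure D3:**
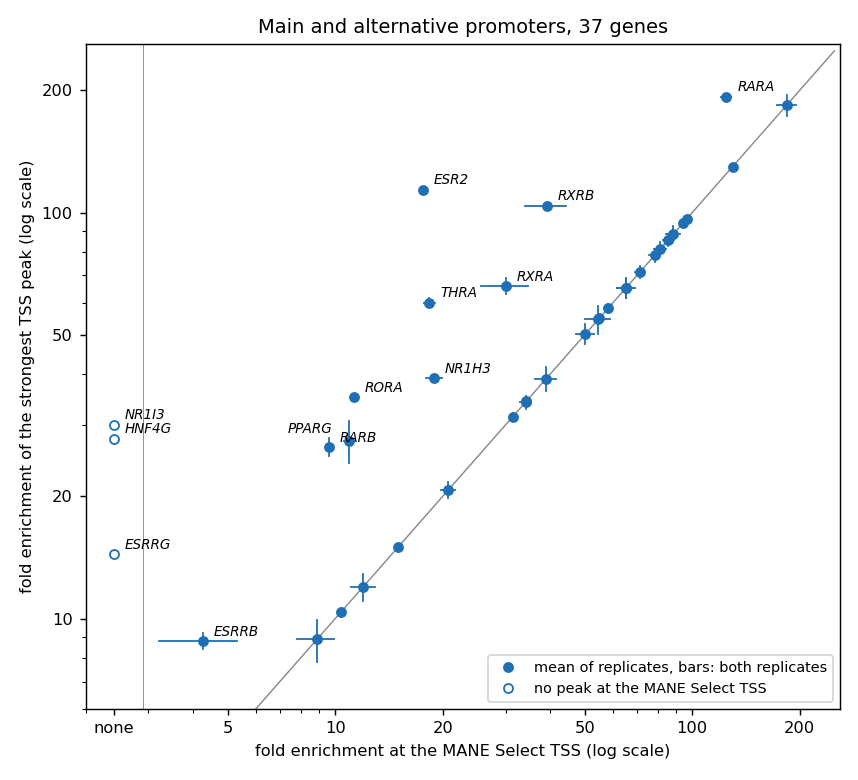
Fold enrichment within 1 kb of the MANE Select TSS (x axis, log scale) against the strongest TSS peak of the gene (y axis, log scale) for 37 nuclear receptor genes; points are means of the replicates, bars join both replicates, and the line marks equal values. ESR2 lies highest above the line among genes with a peak at both places, and the open points of ESRRG, NR1I3 and HNF4G have no peak at the MANE Select TSS.

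The letters of the promoters were compared with these calls. RefSeq promoters (250 bases before to 50 after the start, GRCh38.p14) were matched by symbol for 39 of the 44 genes and for 15345 protein-coding genes, without VDR, HNF4G, NR2F6, NR4A2 and NR0B2. A promoter was called CpG-rich where CpG dinucleotides reached over 0.6 of the number that its C and G content gives and GC was over 55%, limits that were set after the data were seen. Of the 19 CpG-rich receptor promoters, 18 belonged to a gene with a TSS peak in both replicates, or 94.7%, against 92.9% of all CpG-rich protein-coding promoters. Of the 20 others, 14 did, or 70%, against 62.8%. Median fold enrichments were 59.1 for the CpG-rich and 32.6 for the other receptor genes with a TSS peak, and 58.8 and 38.3 for all protein-coding genes.

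RXRG was CpG-rich and had no TSS peak at any of its promoters. The CpG-rich promoter of ESRRG had no peak in either replicate too, and the TSS peaks of that gene lay at other promoters. The 150 bases before its MANE Select TSS are shown beside those of PPARD, which was CpG-rich and open, and of NR5A2, which had no CpG at all in its 300 bases; capitals mark CpG dinucleotides, read 5′ to 3′ on the strand of the gene in GRCh38.p14. The stretches hold 15 CpGs with a GC content of 62.7% in RXRG, 18 with 76.7% in PPARD and 0 with 34.7% in NR5A2.
RXRG, chr1:165445127-165445276, reverse strand: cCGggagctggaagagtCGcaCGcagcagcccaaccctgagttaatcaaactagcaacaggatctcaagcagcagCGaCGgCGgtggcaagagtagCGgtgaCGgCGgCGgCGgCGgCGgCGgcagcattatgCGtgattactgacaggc
PPARD, chr6:35342408-35342557, forward strand: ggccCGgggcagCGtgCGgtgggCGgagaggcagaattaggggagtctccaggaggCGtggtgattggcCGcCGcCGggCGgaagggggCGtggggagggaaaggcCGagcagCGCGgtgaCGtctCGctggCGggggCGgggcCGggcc
NR5A2, chr1:200027560-200027709, forward strand: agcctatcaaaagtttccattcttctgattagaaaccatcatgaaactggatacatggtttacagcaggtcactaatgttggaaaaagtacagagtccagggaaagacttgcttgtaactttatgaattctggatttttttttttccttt

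Accessible regions inside the genes were frequent as well. A gene-body region was counted where its midpoint lay in the gene and it was more than 1 kb from every TSS of that gene. At least 1 such region was found in 39 of the 44 receptor genes, or 88.6% (Wilson interval 76.0 to 95.1%), against 68.9% of all protein-coding genes. The genes without one were RXRB, NR1H3, NR1I3, NR2F1 and NR0B2. Receptor genes were longer, with a median of 53568 bp against 27471 bp, and longer genes held more regions (Spearman ρ = 0.780 over the 44 genes and 0.763 over all protein-coding genes, given as descriptions). Per length, the receptor genes had a median of 0.935 regions per 10 kb, against 0.524 in all protein-coding genes. Summed over genes the difference was smaller, with 0.922 regions per 10 kb of receptor genes against 0.734.

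In all, 546 regions were counted in the receptor genes, 545 of them distinct. Their midpoints fell in introns of the MANE Select transcript for 430, or 78.8%, in exons for 20 and outside that transcript for 96, and 167 lay in the first intron. Of the 546, 24 lay within 1 kb of a TSS of another gene. RORA held 67 regions, RARB 60, THRB 52, RXRA 47 and ESRRG 26, or 46.2% of all between them.

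By density the order was another. NR2F6 had 4.27 regions per 10 kb, NR1D1 3.85, RXRA 3.81, RARG 3.57 and RARA 3.10, which places NR2F6 above 98.6% of protein-coding genes. RXRA was the only gene among the 5 highest by both number and density, with 47 regions over 123488 bp.

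**Figure D4:**
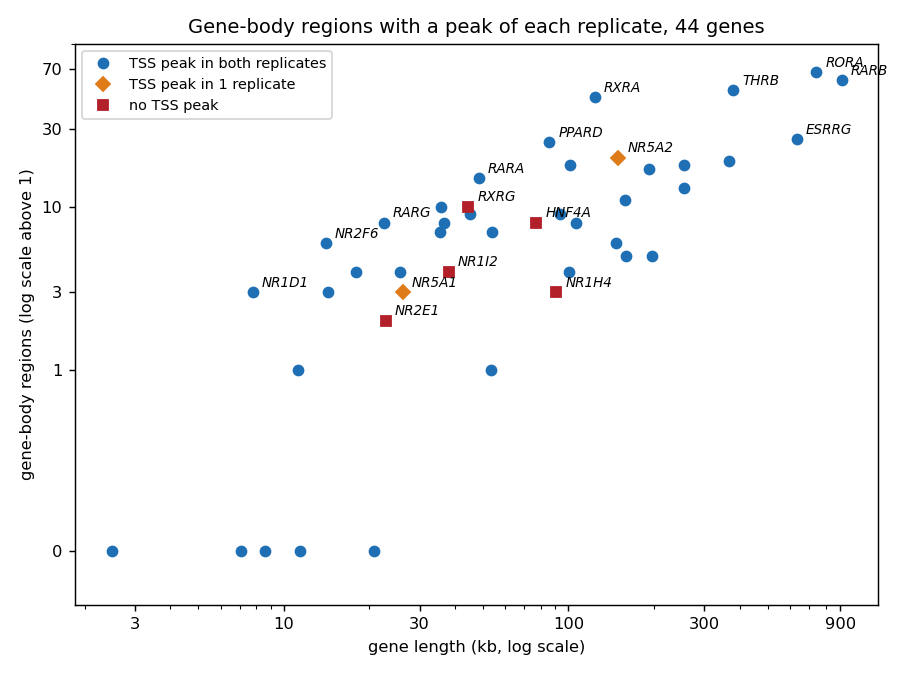
Gene length in kb (x axis, log scale) and number of gene-body regions with a peak of each replicate (y axis, log scale above 1) for 44 nuclear receptor genes, marked by their TSS call. RORA, with 67 regions, is highest, 5 genes lie at 0, and the 7 genes without a TSS peak in both replicates have from 2 to 20 regions.

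Of the 32 receptor genes with both a TSS peak in each replicate and a gene-body region, 12 had a gene-body region stronger than their strongest TSS peak in both replicates, or 37.5%, against 30.6% of the 12084 such protein-coding genes. The strongest gene-body region of the receptor genes lay in NR4A1 at chr12:52032349-52035290, outside its MANE Select transcript, with fold enrichments of 143 and 144. In PPARD a region in intron 2 at chr6:35391358-35393190 reached 120.1 and 126.5, above the TSS peak of the gene in both replicates. In VDR a region in intron 1 at chr12:47900120-47901478 reached 106 and 115, against 61.7 and 68.8 at its TSS. In RARB a region at chr3:25396252-25397577, before its MANE Select promoter, reached 109 and 114, above its strongest TSS peak in both.

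The genes without a TSS peak in both replicates were not without peaks. NR5A2 had 20 gene-body regions, the strongest in intron 5 at chr1:200106969-200108032 with fold enrichments of 62.8 and 64.8. RXRG had 10, with 56.8 and 48.2 in intron 7 at chr1:165408532-165408922, and HNF4A had 8, with 37.7 and 40.02 in intron 1 at chr20:44388423-44389150. The strongest regions of NR1H4 in intron 9, of NR5A1 in exon 7 and of NR1I2 in intron 8 had fold enrichments between 11.7 and 16.6, and that of NR2E1 in intron 5 had 5.98 and 7.30, near a TSS of another gene.

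**Figure D5:**
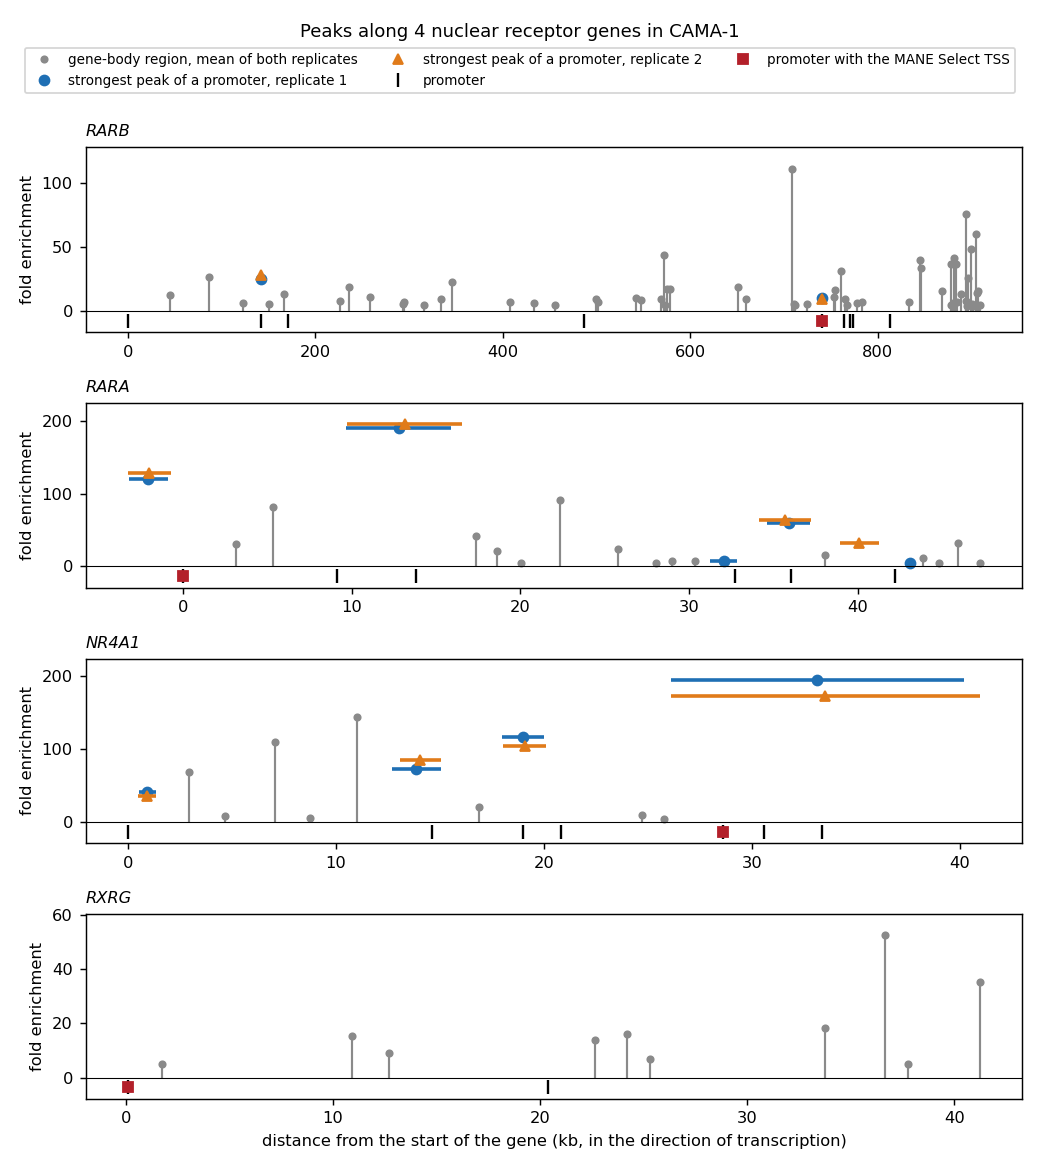
Fold enrichment (y axis) along RARB, RARA, NR4A1 and RXRG by distance from the start of the gene in kb (x axis, in the direction of transcription). Grey points are gene-body regions (mean of both replicates), circles and triangles the strongest peak of each open promoter in replicate 1 and replicate 2 with its span as a bar, ticks below the axis the promoters, and squares the promoter with the MANE Select TSS; the highest region of RARB lies outside its promoters, NR4A1 ends in 1 wide peak, and RXRG has gene-body regions but no open promoter.

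Genes that work with the receptors were also read. All 18 coregulator genes examined had a TSS peak in both replicates, against the 79.3% of all protein-coding genes. Their median fold enrichments of 45.9 and 48.9 lay below the 51.8 and 53.3 of protein-coding genes, and 7 of the 18, or 38.9%, lay above the median, against 39.7%. NCOA2, a coactivator of steroid receptors, was the strongest with 138 and 132, and PELP1 and PPARGC1A the weakest, with 19.6 each in replicate 1 and 18.6 and 21.4 in replicate 2.

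Of 35 well-known receptor target genes, 29 had a TSS peak in both replicates, or 82.9% against 79.3%, and 12 lay above the median, or 34.3% against 39.7%. ABCB11, a bile salt exporter, had one in replicate 2 only, and ABCB1, CYP3A4, FABP4, CYP17A1 and TNFSF11 had none. CPT1A, which carries fatty acids into mitochondria and is a target of the PPAR receptors, was the strongest, with 259 and 279. Among glucocorticoid targets, DUSP1 had 153.5 and 170, FKBP5 114 and 119, TSC22D3 95.9 and 121, and SGK1 46.9 and 50.6. Among the retinoic acid hydroxylases CYP26A1 had 37.7 and 40.5 and CYP26B1 10.35 and 11.5, and the vitamin D hydroxylase CYP24A1 had 8.28 and 7.74.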

How the data were processed

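ATAC-seq peak lists of 2 CAMA-1 replicates were used. Per the labels' processing notes, the authors trimmed reads with Trim Galore 0.6.5, aligned them with Bowtie2 2.3.5.1 to hg38 and called peaks with MACS2 2.2.6 in each replicate. MACS2 settings, the handling of duplicates and excluded regions are not given in the sources used here. For each peak the authors deposited 4 values, namely a score, the fold enrichment over background, a −log10 p and a −log10 q. The score was 10 times the −log10 q cut to a whole number in 100% of deposited peaks. Fold enrichments deposited by the authors were whole multiples of 1 step, which gave heights and background, taking fold enrichment as (height + 1)/(background + 1), a form the files do not state.

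The members and gene lists were chosen with earlier results of these data known. Genes, TSSs and MANE Select transcripts came from GENCODE release 44. Peaks of the replicates were merged where they shared at least 1 bp. With several TSS peaks, the one of highest fold enrichment stood for the gene. Intervals of heights cover counting error only, and stacked reads are not independent molecules. Every receptor gene was named, with full values for the strongest of each class, the steroid receptors and genes called in 1 replicate. Some but not all of the functions were tested on simulated data. Python 3.11.15, numpy 2.4.6, pandas 2.3.3, scipy 1.17.1 and matplotlib 3.10.9 were used. Alternatives were another distance, threshold, TSS choice, ranking or definition of the gene body, and the omission of a replicate. A further marker list is not reported here.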

Additional observations from a re-analysis of the deposited data

How the results depend on the processing

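Of 46 alternatives over 6 results, 37 gave a count within 1.5 times the reported one or a median within the SD between replicates. The other 9 were all medians, given below. The reported medians were a fold enrichment of 54.55 and 0.935 regions per 10 kb. Their SDs, 4.01 and 0.047, were taken between the medians with each replicate alone. The alternatives without a replicate are those same medians, so that the SD cannot judge them. For the fold enrichment, 39 receptor genes entered with replicate 1 alone and 37 with replicate 2 alone. For counts this near to the total, a band of 1.5 times is too wide to show that they held. Even the 28 receptor genes found with the most 5′ TSS fell within it. The median fold enrichment of the strongest TSS peak was 44.7 within 3 kb, 38.6 with the most 5′ TSS, 50.2 with TSSs of protein-coding transcripts and 39.0 with the MANE Select TSS, the last chosen after the data were seen, and from 47.4 to 53.1 without a replicate. The median number of gene-body regions per 10 kb was 0.703 over 3 kb from TSSs and 0.746 for peaks whose −log10 q reached 10, where fewer regions enter, and from 1.09 to 1.16 without a replicate, where single peaks are counted.

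The count of receptor genes whose TSS had peaks in both replicates ranged from 28 with the most 5′ TSS to 42 within 3 kb. Within 3 kb the share was 95.45% of receptor genes against 85% of all protein-coding genes. With the most 5′ TSS the share was 63.6% of receptor genes against 71.7% of all protein-coding genes, the only alternative here in which receptor genes lay below; the cause was not tested. No paired analysis was possible because the design holds 1 group. Signals below the threshold of the peak caller were not seen, and with 2 replicates the spread is rough.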
